A study of Mus musculus with 4 samples.

Results

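The genes described here are the collagen genes of mouse embryonic stem (ES) cells other than Col4a1 and Col4a2, compared between wild type cells and cells that lack Prep1. They were chosen by symbol alone, as every gene named Col, a number, a and a number, leaving out Col4a1 and Col4a2, the chains that build type IV collagen in most basement membranes. This rule took 38 of the 22718 genes measured, out of 40 collagen genes by symbol. The rule is not a strict border of the basement membrane, because Col4a3, Col4a4, Col4a5, Col4a6, Col15a1 and Col18a1, which encode chains known from basement membranes or the zone next to them, stay in the set.

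RNA was sequenced from wild type ES cells (1 library) and Prep1-/- ES cells (1 library), both of the strain C57BL/6 and both kept undifferentiated on gelatin with serum and leukemia inhibitory factor. The Prep1-/- library comes from the line named KO2, so the line and the genotype cannot be told apart. Prep1 itself was mapped by chromatin immunoprecipitation and sequencing (ChIP-seq, 1 sample) in wild type R1 ES cells, a further line whose strain is given as C57BL/6. The study's methods name that strain for the lines derived in its laboratory but not for R1, so whether the strain was shared is uncertain. With 1 library per genotype, no difference below has a replicate check. Intervals of a ratio are exact 95% counting intervals of the ratio of the Prep1-/- to the wild type library (KO/WT). They cover counting error only, and sequenced reads are not independent molecules.

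Collagens are secreted proteins with stretches of repeated glycine triplets, and their chains wind in groups into a triple helix. Fibrillar collagens assemble into the banded fibrils of bone, cartilage, skin and tendon, fibril-associated collagens coat those fibrils, network collagens form sheets, and transmembrane collagens stay anchored in the cell surface. Some types are built of a single kind of chain and others of partner chains, so the chains of a type are described side by side. Prep1, encoded by Pknox1, is a homeodomain transcription factor that binds DNA together with Pbx proteins.

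The deposited read counts summed to 29596294 (wild type) and 25717811 (Prep1-/-). The study's methods state a smaller number of reads per sample, and the counts were taken as reads as deposited. If they are not, the counting intervals are too narrow. Pknox1 had 505 reads in wild type and 332 in the second library, or 7.85 and 5.78 on the RPKM scale, which divides reads by gene length and library size, a KO/WT ratio of 0.736 (0.638 to 0.846). The transcript of the targeted gene was thus present in both, and the second library is called the library labelled Prep1 KO throughout. These reads do not measure protein. On immunoblots of KO2 cells, the study describes a loss of the Prep1 protein. All 8 ES cell markers were above an RPKM of 1, with summed RPKM of 1833 and 2089. Of 12 fibroblast and mesenchymal markers, 4 were above an RPKM of 1, their sums were 15.0 and 12.3, the wild type library lacked reads of 3 and the second library of 2. Fap and Tcf21 had 0 in both, Lum had 0 and 2 reads, Dcn 8 and 12, and Postn 6 and 33, while Twist1 had 183 and 85, Twist2 77 and 40, and Pdgfra 38 and 10. Of 8 chondrocyte markers, 2 were above an RPKM of 1 and their sums were 3.48 and 4.87, with Sox9 at 71 and 59 reads. Of 10 markers of primitive and parietal endoderm, 7 were above an RPKM of 1 and their sums were 412 and 381, of which Sparc alone held 347 and 328. Gata4 had 1156 and 350 reads, Gata6 107 and 43, and Sox17 49 and 18, while Sox7 had 119 and 148 and Lama1 1928 and 1937. The part of such cells in the collagen values was not tested, and in bulk RNA fewer cells of a type and less RNA per cell cannot be told apart.

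The reads of this set, which leaves out Col4a1 and Col4a2, were a small share of these cells' RNA and mostly of 1 gene. The 38 genes together took 25745 reads (0.0870% of all) in the wild type library and 21730 reads (0.0845%) in the library labelled Prep1 KO. Col18a1 alone held 72.1% and 74.2% of those reads. At least 1 read was found for 36 of the 38 genes, 30 had 20 or more in the libraries together, 18 had 100 or more, and 14 were above an RPKM of 1 in either library. The summed RPKM of the 38 genes was 172 in wild type and 162 in the library labelled Prep1 KO, and without Col18a1 it was 68.7 and 62.1. The order of levels depends on the gene length used. Ranked by reads per kilobase of annotated exon instead, 7 of the 10 highest collagen genes in wild type stayed among the 10 highest, Col22a1 could not be ranked for want of an exon length, and the order kept Col18a1 first and Col5a1 second on both scales.

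**Figure D1:**
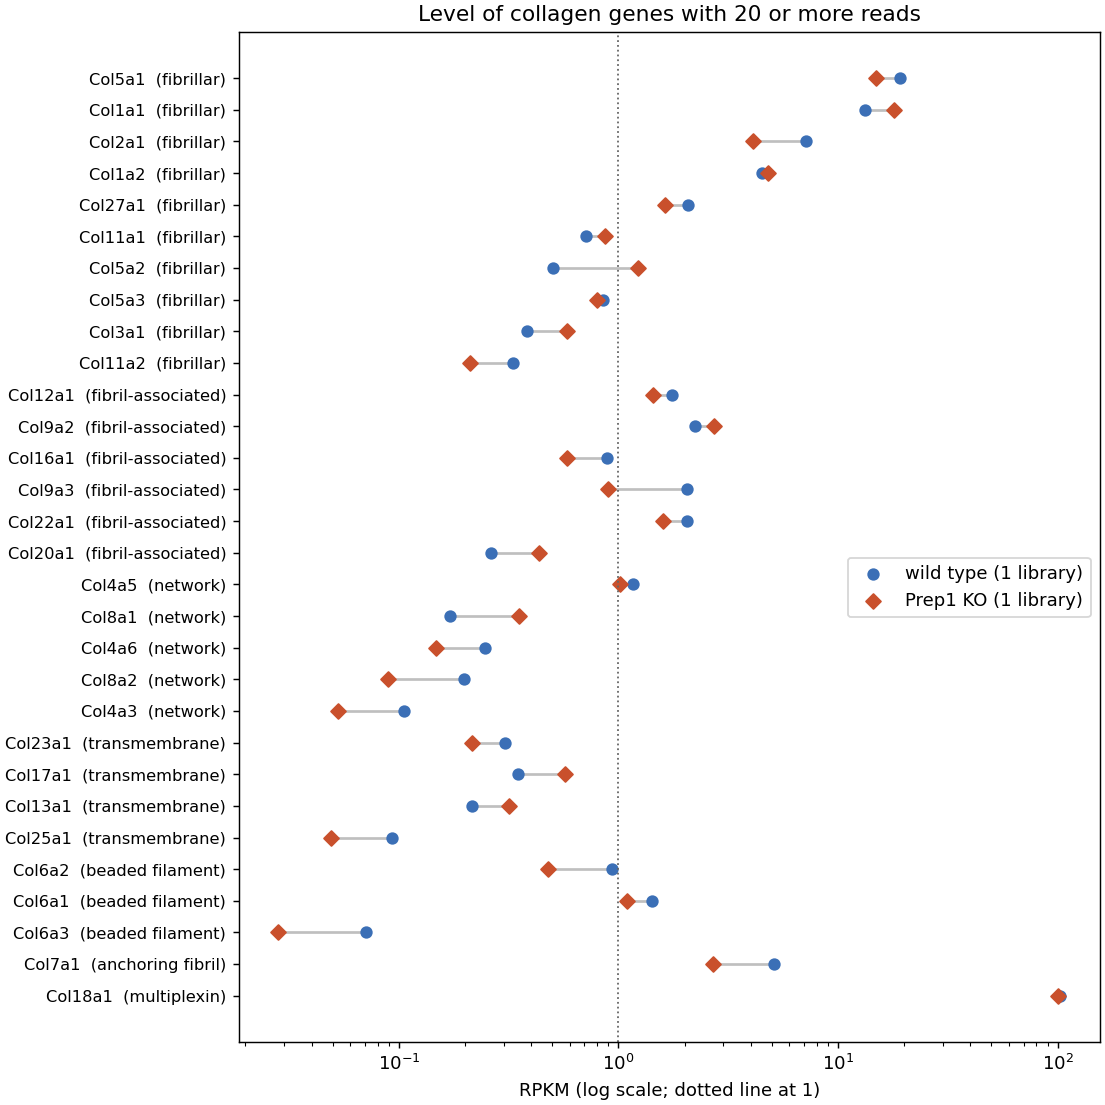
RPKM (log scale) of the 30 collagen genes with 20 or more reads in the wild type library (circles) and the library labelled Prep1 KO (diamonds), ordered by class and then by reads. Col18a1 stands alone at 103 and 100.2, Col5a1, Col1a1, Col7a1, Col2a1 and Col1a2 follow between 2.69 and 19.1, and most genes lie below 1.

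Genes with more than 1 RPKM in wild type were called lower where KO/WT was under 0.7, and genes with more than 1 RPKM in the Prep1 KO library were called higher where it exceeded 1.5. Called lower were 3 collagen genes, Col2a1, Col7a1 and Col9a3, of the 14 above an RPKM of 1, and 13.3% of the 14254 genes at this level met the same rule. Called higher was 1, Col5a2, beside 6.91% of all. Against the same shares, the marker lists held Klf4 called higher of the 8 ES cell markers at this level, Twist1 and Twist2 called lower of 4 fibroblast and mesenchymal markers, Acan and Matn3 called higher of 2 chondrocyte markers, and Gata4, Gata6 and Dab2 called lower of 7 endoderm markers. The median log2 ratio of the 14 genes was -0.30, against -0.07 over all genes. Ranks of the 14 genes gave an order-statistic interval of that median from -0.79 to 0.28. It reflects the spread between genes and does not measure error between libraries. A ratio below 1 was found for 10 of the 14, and 58.6% of all genes at this level had one.

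For 12 of the 30 collagen genes with 20 or more reads, the counting interval of the ratio spans 1. It lay below 1 for 12 and above 1 for 6, and the shares over all 15606 genes at this depth were 36.0% and 20.6%. Without the RPKM minimum, 11 of the 30 had a ratio below 0.7 and 5 a ratio above 1.5, beside 15.2% and 6.99% of all genes with 20 or more reads. These shares move with depth. Among the 12 collagen genes with 20 to 99 reads, 6 were below 0.7 and 4 above 1.5, where 32.5% and 19.5% of all genes at this depth were. Among the 18 with 100 or more reads, 5 were below 0.7 and 1 above 1.5, beside 11.6% and 4.45%. The use of 20 or more reads in place of the RPKM minimum for these counts was chosen after the data were seen.

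**Figure D2:**
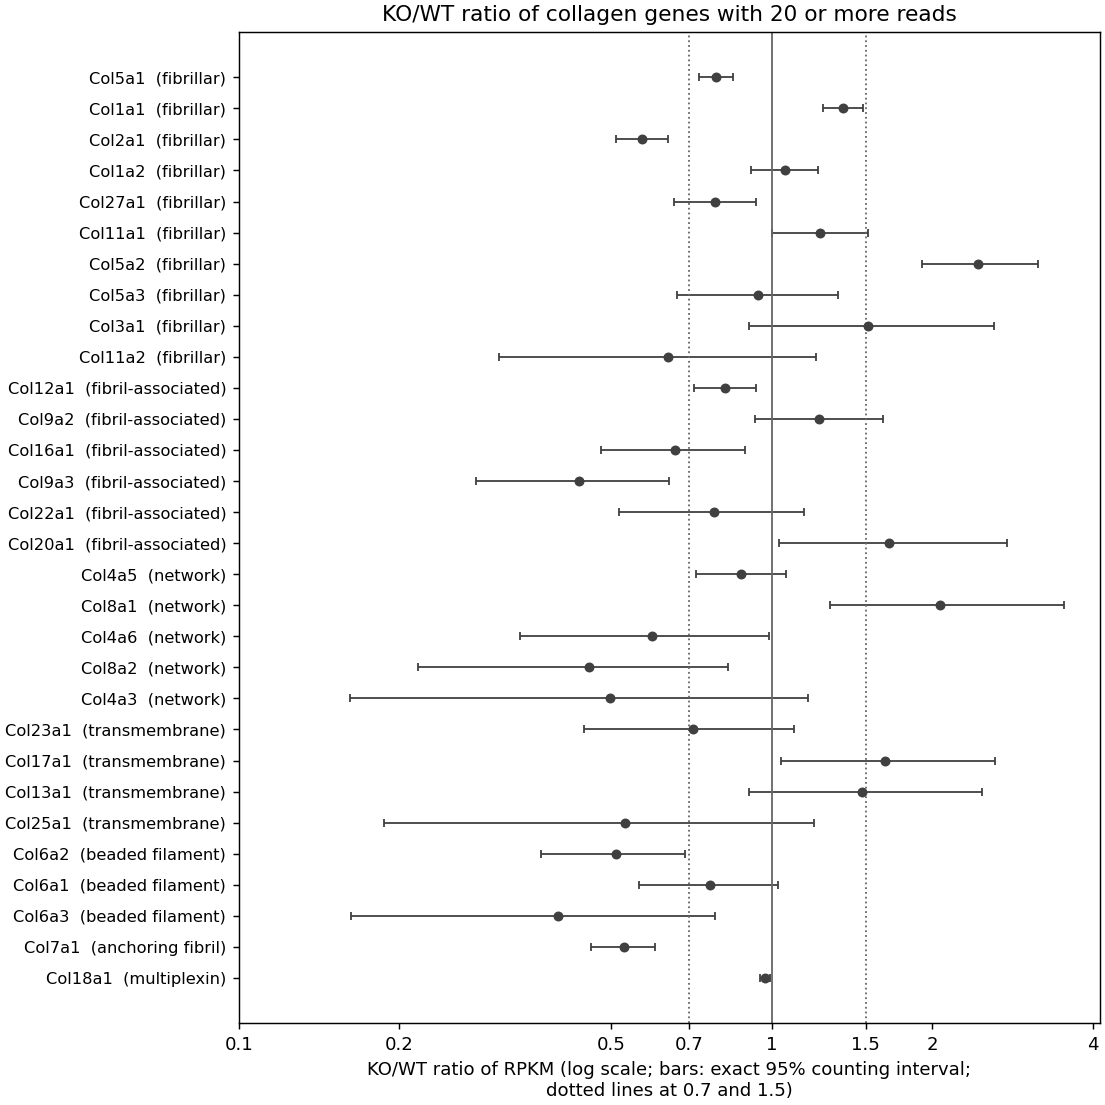
KO/WT ratio of RPKM (log scale) of the 30 collagen genes with 20 or more reads, with exact 95% counting intervals and dotted lines at 0.7 and 1.5. The intervals of Col2a1, Col7a1, Col9a3 and Col6a2 end below 0.7, that of Col5a2 begins above 1.5, and those of genes under 100 reads are wide.

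The deposited ChIP-seq peak list holds 3902 peaks with a median length of 680 bases and a median enrichment over input of 21-fold, from 4 to 336. Of the 37 collagen genes that could be placed on the mouse genome build NCBIM37 (mm9), 13 had a peak in the gene or within 20 kb of it, and so did 24.4% of 21446 placed genes. A peak lay between 500 bases before and 100 bases after the annotated start in 3 of the 37, Col5a1, Col11a1 and Col4a6, and in 7.60% of all placed genes. The 13 genes hold 13 separate peaks, since Col2a1 and Col16a1 have a pair each, while Col4a5 shares its peak with Col4a6, and Col9a1 with Col19a1.

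The Prep1 and Pbx decamer, taken here strictly as TGAN followed by TGACAG with N for any base, was searched on both strands of each peak. An exact match stood in 3 of the 13 peaks and in 24.3% of all peaks, and a match with at most 1 differing base in 8 of the 13 and in 63.4% of all. The study searched for its decamer motif with the FIMO program and reported it in a larger share of peaks than the exact letters gave here. The core TGACAG alone, which the decamer contains, was in 58.4% of all peaks. In the 500 bases before the start, 1 of 37 collagen genes, Col4a6, had the exact decamer, as did 1.11% of all placed genes. Such a match describes the letters and does not by itself show a binding site. Nor does the lack of an exact match show that a peak has no site. The Prep1 site that the study tested at the Fgf4 promoter itself has 1 differing base.

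**Figure D3:**
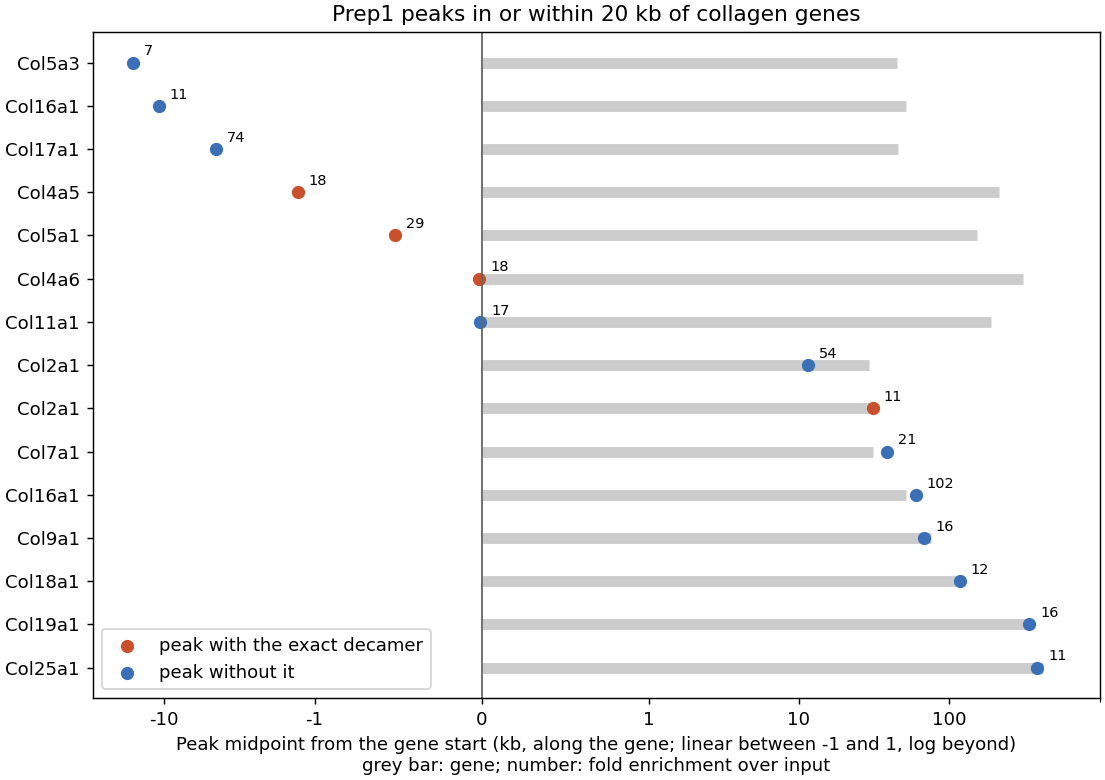
Midpoints of the Prep1 peaks relative to the annotated start of each collagen gene (kb along the gene, linear between -1 and 1 and log beyond), with the gene as a grey bar, the fold enrichment over input as a number, and peaks with the exact decamer in red. The peaks of Col11a1 and Col4a6 sit on the start and those of Col9a1, Col25a1 and 1 of the pair of Col2a1 lie inside the gene.

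Fibrillar collagens were the class with the most genes above an RPKM of 1, and their ratios lay on both sides of 1. All 11 had a read, 10 had 20 or more, and the summed RPKM of the class was 48.9 in wild type and 47.2 in the library labelled Prep1 KO. Of the 6 above an RPKM of 1, 3 had a ratio below 1 and 3 above it, with a median log2 ratio of -0.13.

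Col1a1 and Col1a2 encode the chains of type I collagen, the main collagen of bone and skin. Col1a1 (chromosome 11) had 976 reads at an RPKM of 13.2 in wild type and 1186 reads at 18.0 in the library labelled Prep1 KO, a ratio of 1.36 (1.25 to 1.48). Its partner Col1a2 (chromosome 6) had 388 reads at 4.52 and 367 reads at 4.78, a ratio of 1.06 (0.914 to 1.22). The interval of Col1a1 thus lies above 1 and that of Col1a2 spans it. Col3a1, the single chain of type III collagen of vessels and skin, had 27 reads at an RPKM of 0.384 and 37 reads at 0.582, a ratio of 1.52 (0.908 to 2.62), which 64 reads in all could not set apart from 1.

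The cartilage collagen Col2a1, the only chain of type II collagen, was the fibrillar gene called lower. Col2a1 lies at chr15:97806033-97835155 on the minus strand. It had 909 reads at an RPKM of 7.17 in wild type and 464 reads at 4.10 in the library labelled Prep1 KO. The ratio was 0.571 (0.509 to 0.639), with the whole interval below 0.7. Beside it, both chondrocyte markers above an RPKM of 1, Acan and Matn3, were called higher, at ratios of 1.81 (1.57 to 2.10) and 1.63 (1.09 to 2.47). Matn3 passed this level only in the library labelled Prep1 KO, with an RPKM of 0.675 and 1.10. The markers below this level went both ways. Comp had 23 and 6 reads, a ratio of 0.326 (0.0972 to 0.737), and Sox9 and Sox5 were also below 1, while Matn1, Hapln1 and Chad were above 1. A pair of Prep1 peaks lies in Col2a1 or within 20 kb of it. The stronger, chr15:97823100-97824082, was 54-fold over input and lies in an intron with its midpoint 11564 bases after the start. The weaker, chr15:97804020-97804530, was 11-fold and lies 1502 bases past the end of the gene. Its midpoint is nearer the start of Tmem106c, at 9565 bases, than that of Col2a1, at 30880 bases. The weaker peak holds the exact decamer, shown here on the plus strand in capitals with the bases around it (chr15:97804222-97804321), while the stronger has no match with fewer than 2 differing bases, and its middle 100 bases are shown on the strand of the gene (chr15:97823542-97823641).
Col2a1 downstream peak: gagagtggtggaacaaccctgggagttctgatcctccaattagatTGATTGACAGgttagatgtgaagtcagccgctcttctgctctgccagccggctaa
Col2a1 intron peak: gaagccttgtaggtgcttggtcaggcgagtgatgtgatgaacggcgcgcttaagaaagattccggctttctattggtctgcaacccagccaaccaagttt

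Type V collagen, which nucleates fibrils and limits their width, had chains on both sides of 1. Col5a1 was second in level to Col18a1, with 1799 reads at an RPKM of 19.1 in wild type and 1263 reads at 15.0 in the library labelled Prep1 KO, a ratio of 0.785 (0.730 to 0.844). Col5a2, the chain that joins it in the common heterotrimer, had 95 reads at 0.504 and 208 reads at 1.23. Its ratio of 2.43 (1.91 to 3.15) made it the collagen gene called higher. Col5a2 was thus at a low level in both libraries, and even at its higher value its RPKM stayed far below that of Col5a1. Col5a3, an alternative chain of the trimer, had 76 reads at 0.850 and 64 at 0.802, a ratio of 0.944 (0.664 to 1.33). The neighbours Col5a2 and Col3a1 on chromosome 1 run towards each other with 24614 bases between them, and both had ratios above 1. No Prep1 peak lay within 20 kb of Col5a2, and that of Col5a3, 7-fold over input and 16116 bases before its start, was nearer the start of Rdh8.

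Col5a1 starts at base 27741945 of chromosome 2 on the plus strand. Its peak, chr2:27740980-27741871, was 29-fold over input and ends 73 bases before the start, and it also covers the opposite-strand gene 2810430I11Rik. The exons of Col5a1 share 99 bases with 2810430I11Rik and 113 with Gm13372, and those of Col1a1 share 109 with Gm17329, all on opposite strands. The exact decamer lies 503 to 494 bases before the start. It is printed in capitals, on the minus strand, inside chr2:27741397-27741496, because it is the decamer in the peak nearest to the start of the most abundant fibrillar chain.
Col5a1 upstream peak: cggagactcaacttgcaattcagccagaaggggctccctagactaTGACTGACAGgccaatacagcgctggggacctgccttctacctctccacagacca

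Type XI collagen, a minor fibrillar type that works with type II in cartilage, was low. Col11a1 had 180 reads at an RPKM of 0.708 and 198 reads at 0.871, a ratio of 1.23 (1.00 to 1.51). Col11a2 had 27 reads at 0.330 and 15 reads at 0.211, a ratio of 0.639 (0.307 to 1.21). The peak at Col11a1, chr3:113733112-113733791, was 17-fold over input with its midpoint 7 bases before the start, and neither the decamer nor its core TGACAG was in it. The 100 bases before that start (chr3:113733358-113733457, plus strand), all of them under the peak, are shown for comparison with the decamer sequences.
Col11a1 start: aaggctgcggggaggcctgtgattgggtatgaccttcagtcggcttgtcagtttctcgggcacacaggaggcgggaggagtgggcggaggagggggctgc

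The remaining fibrillar genes were Col27a1 and Col24a1, whose chains belong to a separate branch of the fibrillar family. Col27a1 had 317 reads at an RPKM of 2.08 in wild type and 222 reads at 1.63 in the library labelled Prep1 KO, a ratio of 0.784 (0.657 to 0.933). Col24a1 had 9 reads in wild type and 0 in the other library. Against a floor of 3 reads in the library labelled Prep1 KO, that is at least 2.68-fold lower with the 9 wild type reads taken as exact, while the counting interval of the ratio, which covers both counts, ends at 0.566.

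Among the 9 fibril-associated collagens, 8 had a read and 6 had 20 or more. Of the 4 above an RPKM of 1, 3 had a ratio below 1, and the median log2 ratio was -0.31. Col9a3 was called lower. The class summed to an RPKM of 9.28 in wild type and 7.71 in the library labelled Prep1 KO.

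Type IX collagen decorates the type II fibrils of cartilage as a heterotrimer of its 3 chains, and their ratios differed. Col9a3 (chr2:180332495-180356894, plus strand) had 89 reads at an RPKM of 2.06 in wild type and 34 reads at 0.895 in the library labelled Prep1 KO, a ratio of 0.435 (0.279 to 0.641). Col9a2 had 104 reads at 2.23 and 114 reads at 2.73, a ratio of 1.22 (0.931 to 1.61). Col9a1 had only 1 and 0 reads. The intervals of Col9a3 and Col9a2 do not overlap. The exons of Col9a3 share 234 bases with the opposite-strand gene Tcfl5. The study speaks of transcripts of the sense strand, but whether the library kept strand and the counting used it is not given in the sources used here, so the source of reads in such overlaps is uncertain. No Prep1 peak lay within 20 kb of Col9a3 or Col9a2. A 16-fold peak, chr1:24252503-24253105, lay in an intron of Col9a1 and within 20 kb of Col19a1, genes with almost no reads.

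Col12a1, which binds type I fibrils in tendon and skin, had 527 reads at an RPKM of 1.75 in wild type and 385 at 1.43 in the library labelled Prep1 KO, a ratio of 0.817 (0.714 to 0.933). Col16a1 had 116 reads at 0.887 and 68 at 0.585, a ratio of 0.659 (0.479 to 0.892), and its wild type RPKM below 1 kept it out of the call. Col22a1, found at tissue junctions, had 65 reads at 2.05 and 45 at 1.60, a ratio of 0.779 (0.517 to 1.15). Both Col12a1 and Col16a1 had intervals below 1, and that of Col22a1 spans it. Col20a1 had 30 reads at 0.263 and 45 at 0.436, a ratio of 1.66 (1.03 to 2.76). Col14a1 had 3 reads in each library and Col19a1 none in either. Of the peaks assigned to Col16a1, an 11-fold peak lies 10911 bases before its start on the gene Gm12963, and a 102-fold peak lies past its end in Pef1.

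Network collagens were sparse. Of 7 genes, 6 had a read, 5 had 20 or more and Col4a5 alone passed 100 reads or an RPKM of 1. The genes of the minor type IV chains, which take the place of the usual ones in some basement membranes, are arranged as head-to-head pairs. Col4a5 and Col4a6 start 1308 bases apart on chromosome X. Col4a5 had 243 reads at an RPKM of 1.16 in wild type and 190 at 1.02 in the library labelled Prep1 KO, a ratio of 0.875 (0.719 to 1.06). Col4a6 had 44 reads at 0.248 and 23 at 0.148, a ratio of 0.596 (0.337 to 0.989). The interval of Col4a6 lies just below 1 and overlaps that of Col4a5, so at this depth the pair could not be told apart. Col4a3 and Col4a4, 71 bases apart on chromosome 1, were nearly silent, with 17 and 7 reads for Col4a3, a ratio of 0.497 (0.161 to 1.17), and 3 and 5 for Col4a4. For comparison, the excluded pair Col4a1 (9873 and 4177 reads) and Col4a2 (7265 and 3041 reads) had ratios of 0.473 and 0.468. Both lie on chromosome 8, where the median ratio of 749 genes was 0.775, against 0.918 to 1.09 on the other chromosomes.

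The peak on the start of Col4a6, chrX:137908393-137908875, was 18-fold over input, with its midpoint 15 bases before that start and 1294 bases before the start of Col4a5. The exact decamer lies 40 to 31 bases before the start of Col4a6. It is the decamer nearest to a start among the collagen genes and is shown on the strand of that gene (chrX:137908620-137908704, minus strand).
Col4a6 start: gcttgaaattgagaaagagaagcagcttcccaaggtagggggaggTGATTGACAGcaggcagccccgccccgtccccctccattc

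Type VIII collagen, a short-chain network of vessel walls and of the membrane behind the cornea, had chains on opposite sides of 1. Col8a1 had 26 reads at an RPKM of 0.170 in wild type and 49 at 0.352 in the library labelled Prep1 KO, a ratio of 2.07 (1.28 to 3.53). Col8a2 had 36 reads at 0.197 and 14 at 0.0894, a ratio of 0.453 (0.217 to 0.826). The intervals do not overlap, although each gene rests on fewer than 100 reads. The hypertrophic cartilage collagen Col10a1, also a network type, had no reads in either library.

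None of the 4 transmembrane collagens reached 100 reads or an RPKM of 1. Col17a1, a part of the hemidesmosomes that hold epithelia to their base, had 34 reads at an RPKM of 0.349 in wild type and 50 at 0.569 in the library labelled Prep1 KO, a ratio of 1.63 (1.04 to 2.62). The other 3 had intervals that span 1. Col23a1 had 54 reads at 0.304 and 34 at 0.216, a ratio of 0.712 (0.444 to 1.10). Col13a1, a collagen of cell contacts such as the neuromuscular junction, had 30 reads at 0.216 and 40 at 0.319, a ratio of 1.48 (0.906 to 2.48). Col25a1 had 18 and 8 reads, a ratio of 0.530 (0.187 to 1.20), and an 11-fold peak across an exon and intron far inside the gene, chr3:130269035-130269635. Col17a1 had the peak with the highest enrichment among those upstream of a collagen gene, 74-fold at chr19:47770588-47771578, with its midpoint 4499 bases before the start. It has no exact decamer. The stretch that comes nearest, with 1 differing base, is in capitals within chr19:47771052-47771151 on the minus strand. Its differing base, G in place of A, is also found in the Prep1 site that the study reports at the Fgf4 promoter.
Col17a1 upstream peak: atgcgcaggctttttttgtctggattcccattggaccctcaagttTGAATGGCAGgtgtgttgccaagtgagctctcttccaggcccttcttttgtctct

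Type VI collagen forms beaded filaments around cells, and its 3 chains in this set all had ratios below 1. Col6a1 had 113 reads at an RPKM of 1.43 in wild type and 77 at 1.09 in the library labelled Prep1 KO, a ratio of 0.765 (0.563 to 1.03). Col6a2, its neighbour 85161 bases away on chromosome 10, had 137 reads at 0.939 and 62 at 0.479, a ratio of 0.510 (0.369 to 0.688). Col6a3 had 30 reads at 0.0709 and 10 at 0.0281, a ratio of 0.397 (0.163 to 0.783). The intervals of Col6a2 and Col6a3 lie below 1 and that of Col6a1 spans it. The wild type RPKM of Col6a2, just under 1, placed it outside the call. None had a Prep1 peak within 20 kb.

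Col7a1, the chain of the anchoring fibrils that tie the epidermal basement membrane to the dermis, was called lower. It lies at chr9:108855631-108886920 on the plus strand and had 649 reads at an RPKM of 5.10 in wild type and 306 at 2.69 in the library labelled Prep1 KO. The ratio was 0.528 (0.459 to 0.605). Its exons share 36 bases with the microRNA gene Mir711 on the same strand. The peak within 20 kb of Col7a1, 21-fold over input, lies past its end at the start of Pfkfb4.

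Col18a1, whose protein carries the endostatin domain at its end, was at a level far above the other 37 genes, though the excluded Col4a1 reached an RPKM of 75.5 in wild type. It had 18563 reads at an RPKM of 103 in wild type and 16134 reads at 100.2 in the library labelled Prep1 KO. The ratio was 0.972 (0.951 to 0.993). The interval is narrow because of the depth, and other ways of scaling the libraries moved the ratio to between 1.00 and 1.02, so its side of 1 depends on the scaling. Its wild type RPKM was above that of 95.7% of all genes. A 12-fold peak lies past its end in Slc19a1. Col15a1, the other multiplexin, had 10 and 2 reads, and Col28a1 had 0 and 1.

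The genes that modify, fold, cut, cross-link, bind or degrade collagen were examined as lists. Of 58 such genes, 56 were measured and 33 were above an RPKM of 1 in either library, of which 7 were called lower and 2 higher, beside the shares of 13.3% and 6.91% over all genes at this level, against which the counts of each list below are also to be read. None of the 11 genes for proline and lysine hydroxylation at this level was called, and their median log2 ratio was -0.23. Of 6 genes for procollagen folding and secretion, 2 were called lower, with a median of -0.33. Serpinh1, the collagen chaperone of the endoplasmic reticulum, had 11741 and 6759 reads, an RPKM of 202 and 130 and a ratio of 0.644. Fkbp10, a prolyl isomerase that acts on procollagen, had 3043 and 1898 reads and a ratio of 0.698, just inside the rule. Its counting interval, 0.658 to 0.739, spans 0.7. Other ways of scaling the libraries were not run on these lists.

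The cleavage enzymes held a call in each direction. Bmp1, which removes the carboxy-terminal propeptide, had 4369 and 2507 reads and a ratio of 0.642. Adamts14, which removes the amino-terminal propeptide, had 328 and 631 reads and a ratio of 2.15. The median log2 ratio of the 4 cleavage genes at this level was 0.04. Of 4 cross-linking genes, Loxl4, a lysyl oxidase, was called lower with 465 and 226 reads and a ratio of 0.545, and the median was -0.12. Bgn, the only fibril-binding proteoglycan of 7 above an RPKM of 1, had 247 and 336 reads and was called higher at a ratio of 1.52. Its counting interval, 1.29 to 1.80, spans 1.5.

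Of 4 collagen receptor genes above an RPKM of 1, Itgb1, the beta chain shared by the collagen-binding integrins, was called lower with 8089 and 4386 reads and a ratio of 0.606, and the median log2 ratio was -0.38. Of 3 proteases at this level, with a median of -0.79, the gelatinases Mmp2 (871 and 447 reads, ratio 0.574) and Mmp9 (701 and 313 reads, ratio 0.500) were called lower. The membrane collagenase Mmp14, at 0.703, stood just outside. Itgb1 and Mmp2 lie on chromosome 8, whose lower median ratio is given above, and the part of that in their values was not tested.

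**Figure D4:**
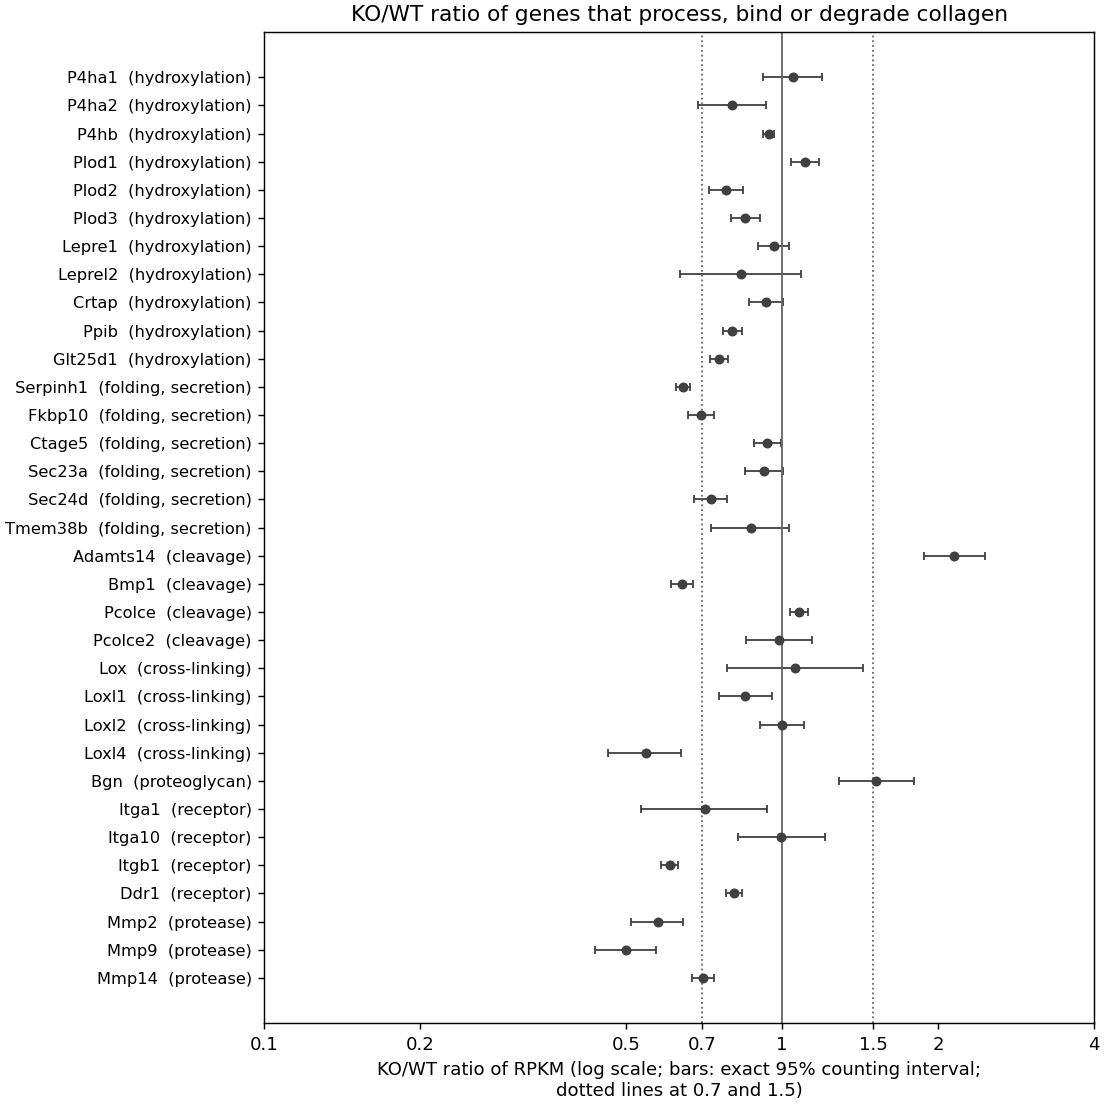
KO/WT ratio of RPKM (log scale) of the 33 genes that process, bind or degrade collagen and were above an RPKM of 1 in either library, with exact 95% counting intervals and dotted lines at 0.7 and 1.5. The points of the hydroxylation genes stay between the dotted lines. Those of Serpinh1, Fkbp10, Bmp1, Loxl4, Itgb1, Mmp2 and Mmp9 lie left of 0.7, and those of Adamts14 and Bgn right of 1.5. Some intervals cross a dotted line, such as those of P4ha2, Leprel2 and Fkbp10 at 0.7 and that of Bgn at 1.5.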

How the data were processed

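Poly(A) RNA of 1 wild type and 1 Prep1-/- ES cell library was sequenced by the authors as paired-end reads of 50 bases and assigned with RSEM to Ensembl 63 genes on mm9, with DESeq also named, and versions are not given in the sources used here. The authors deposited a whole-number read count per gene and an RPKM value. The deposited RPKM followed the count plus 1, since the KO/WT ratio of RPKM was 1.12 times that of the count plus 1 for every gene with finite values, and 85 genes with infinite RPKM were left out of ratios. ChIP reads were aligned with BWA, and peaks were called with MACS against input by the authors, whose deposited peak score is the fold enrichment over input as a whole number. Peaks were called on 1 sample, not on replicates.

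Ratios are of RPKM without pseudocount, medians of log2 ratios used RPKM plus 0.1, and intervals are Clopper-Pearson limits from read counts at 20 or more reads. The calls and intervals were run on simulated counts that held counting error only. That checks the code and says nothing about variation between cultures or lines. With 1 library per genotype no test between genotypes was run, and edgeR 4.0.16 (R 4.3.3) gave only TMM scaling factors for an alternative. Python 3.11.15, pandas 2.3.3, scipy 1.17.1 and pysam 0.24.0 were used. Coordinates come from GENCODE M1 on NCBIM37, in which 21446 of 22718 genes and 37 of 38 collagen genes were found (Col22a1 was not placed). RPKM divides by the authors' own gene length, which relative to annotated exons ran from 0.303 for Col1a2 to 3.46 for Col10a1, so the order of levels between genes is approximate.

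The collagen genes, the classes and the lists were chosen with earlier results of these data known. Collagen genes with 20 or more reads were to be named with reads or RPKM, those with 100 or more described with ratio and interval, and list genes past the fold rule with 100 or more reads named. Alternatives changed the RPKM minimum, the thresholds, the pseudocount, the scaling of the libraries and the peak window.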

Additional observations from a re-analysis of the deposited data

How the results depend on the processing

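Of the ratios of 18 collagen genes with 100 or more reads under 5 alternatives each, 85 of 90 values stayed on the same side of their thresholds and of 1 or within the counting interval, and none reversed past a threshold. The exceptions were Col5a2 with a pseudocount of 1 (1.48, no longer called higher), Col6a2 with that pseudocount (0.763), and Col18a1 under 3 scalings (1.00, 1.02 and 1.02). These scalings moved the median log2 ratio of all genes by 0.04 to 0.07. The median log2 ratio of the collagen genes ranged from -0.34 to -0.20. The counts depended on the filter. Called lower were 3 genes, but 5 with an RPKM minimum of 0.5, 14 without a minimum, 11 without it but with 20 or more reads, and 1 with thresholds of 0.5 and 2. Called higher was 1, but 0 with a pseudocount of 1, 3 with a minimum of 0.5, 7 without a minimum, and 5 without it but with 20 or more reads. Shares over all genes are given above for the main rule and for 20 or more reads. They were not counted for the other settings, whose counts thus show only the effect of the filter. Collagen genes with a peak were 13 of 37, beside 24.4% of all placed genes. They were 6 for the gene and 500 bases before it, beside 12.5% of all. Within 100 kb they were 21, beside 49.2%. With only the peaks at or above the median enrichment they were 5, beside 14.7%. For the called genes the setting with 20 or more reads in place of the RPKM minimum, for the median the one without Col18a1, and the ranking by reads per kilobase of annotated exon were chosen after seeing the data. No paired analysis was possible because each genotype has 1 library, and no library could be left out. Depth limits the 12 collagen genes with 20 to 99 reads, whose intervals are wide.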
